A study of Mus musculus with 8 samples.

Results

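The minichromosome maintenance (MCM) genes Mcm2, Mcm3, Mcm4, Mcm5, Mcm6, Mcm7 and Mcm10 were followed through every measurement of a study of the RNA-binding protein LIN28A in mouse embryonic stem cells. They were chosen by symbol, and each of the 7 was present as 1 RefSeq transcript in each of 3 deposited tables, among 7820 transcripts measured by CLIP-seq, 16456 by poly(A) RNA-seq and 7936 by ribosome profiling. The cells were the A3-1 line, grown with fetal bovine serum and leukemia inhibitory factor (LIF). CLIP-seq sequences the RNA fragments that stay crosslinked to a protein pulled down by an antibody. It was done in cells that received no siRNA, with the monoclonal LIN28A antibodies 35L33G and 2J3 and with a commercial polyclonal antibody, 1 library for each. Poly(A) RNA came from untreated cells and from cells 48 h after siRNA against luciferase (siLuc, the control) or Lin28a (siLin28a). Ribosome-protected fragments (footprints) came from the siLuc and siLin28a conditions. Every condition outside CLIP had 1 library, and all libraries came from this single cell line.

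Mcm2 to Mcm7 encode the 6 related subunits of a ring that is loaded onto DNA at replication origins before S phase, a step called licensing, and that unwinds DNA as the motor of the replicative helicase once CDC45 and the GINS complex join it. Each ring holds every subunit once. MCM10, despite its name, is not a ring subunit: it binds the activated helicase and helps origins to fire. MCM genes are known targets of E2F transcription factors, and embryonic stem cells, which cycle fast with a short G1 phase, are known for high MCM levels.

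E2F sites are the element that promoters of this family are known to share, so the promoters were searched for 4 forms of the site. RefSeq promoter sequences (GRCm38.p6, 300 bases each, most of them upstream of the start) were matched for 6 members; Mcm4 had no entry. The motifs were TTTGGCGC, TTTCGCGC, TTTCCCGC and TTTGCCGC on both strands, and overlapping matches were joined. Matches were found for 4 of the 6 members. The same letters occurred for 2.61% of 27025 genes and for 24 of the 67 other replication and S phase genes described below that had an entry. The windows are written 5′ to 3′ on the strand of the gene, with the matched letters in capitals.
Mcm3, chr1:20820275-20820304, minus strand: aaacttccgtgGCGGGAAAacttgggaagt
Mcm3, chr1:20820263-20820285, minus strand: acttgggaagtTTTGGCGCcaag
Mcm5, chr8:75109347-75109376, plus strand: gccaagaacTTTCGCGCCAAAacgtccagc
Mcm6, chr1:128359795-128359824, minus strand: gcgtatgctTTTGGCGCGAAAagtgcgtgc
Mcm6, chr1:128359734-128359763, minus strand: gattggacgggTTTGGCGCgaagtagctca
Mcm7, chr5:138172030-138172059, minus strand: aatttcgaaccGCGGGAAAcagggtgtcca
Mcm7, chr5:138171849-138171878, minus strand: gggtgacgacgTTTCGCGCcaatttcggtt
In Mcm5 and in the upstream window of Mcm6, matches on the 2 strands overlap, so the capitals hold the site in both orientations. The letters were not found in the windows of Mcm2 and Mcm10. CCAAT, searched on both strands, was present for all 6 members and for 41.1% of genes. Mcm7 had 2 promoter entries, and its windows come from the first. A match describes these letters only.

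The siRNAs that define the comparison are given in the labels as 2 strands each, without their dTdT ends here, all in lower case because the labels do not say which strand is the guide.
siLin28a, first strand: auguucuucccuuuuggcc
siLin28a, second strand: ggccaaaagggaagaacau
siLuc, first strand: ucgaaguacucagcguaag
siLuc, second strand: cuuacgcugaguacuucga

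The libraries held 5980673 to 9605641 counts. Lin28a mRNA with siLin28a stood at 33.4% of its siLuc level and Lin28a footprints at 25.7%. All 10 embryonic stem cell markers were detected in untreated cells, from 27.5 RPKM (Dppa4) to 874 RPKM (Pou5f1), where RPKM is the authors' count scaled to exon length and library total. Of 8 fibroblast markers 6 were listed in the table, 4 of them below 1 RPKM and none at 0 in untreated cells, with a summed level of 98.2 RPKM in untreated cells, 157 with siLuc and 164 with siLin28a, most of it Vim. Of 10 lineage markers 9 were listed, 7 of them below 1 RPKM and none at 0 in untreated cells (Gata6 was at 0 with siLuc). They summed to 59.8, 58.3 and 82.5 RPKM. Most of this was Otx2, at 33.9, 30.6 and 50.4 RPKM, and Tubb3, at 24.4, 25.9 and 29.3. The part of such cells in the siRNA results was not tested.

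MCM mRNAs were among the abundant transcripts of untreated cells, and the subunits of the ring were not equal in level. In untreated cells the poly(A) level per exon length was 419 RPKM for Mcm3, 319 for Mcm6, 242 for Mcm5, 204 for Mcm2, 132 for Mcm7, 120 for Mcm4 and 77.7 for Mcm10. Mcm3 therefore stood above 99.6% of the transcripts with a count, and Mcm10, the lowest of the 7, above 93.2%. The highest ring subunit was 3.49 times the lowest. Neighbours in this order lay apart by more than their 95% counting intervals (Mcm7 127 to 137, Mcm4 116 to 124). With 1 library the spread between cultures is unknown. The intervals also leave out how poly(A) reads were tallied. With siLuc, Mcm7 had 2522 counts in the poly(A) table and 5420 in the footprint table. There it exceeded Mcm2 (4902) and Mcm5 (4569), whose transcripts are longer. The place of Mcm7 with siLuc therefore depends on the tally, and in untreated cells it may. The ring subunits together took 0.440% of all poly(A) counts in untreated cells and 0.443% with siLuc.

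**Figure D1:**
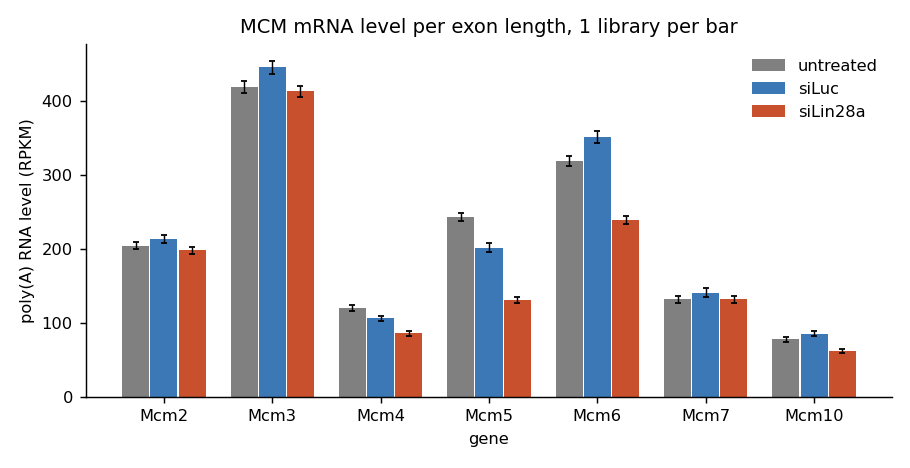
Poly(A) level in RPKM (vertical axis) of the 7 MCM genes in the untreated, siLuc and siLin28a libraries, 1 library per bar, with exact Poisson 95% counting intervals. Mcm3 and Mcm6 are highest in each library and Mcm10 lowest, and Mcm5 goes from 242 RPKM in untreated cells to 131 with siLin28a.

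In LIN28A CLIP, MCM mRNAs were under-represented relative to untreated poly(A) RNA, with Mcm4 as the exception. The question is which mRNAs LIN28A contacts, and the value is the log2 ratio of CLIP to untreated poly(A) counts after TMM scaling, with a pseudocount of 0.5 counts. Of the 7 members 6 were depleted and 0 enriched by edgeR's quasi-likelihood test at an adjusted p of 0.05, where 33.3% of all transcripts were depleted and 34.6% enriched. The median of the members was −1.36 against −0.03 for all 7820 transcripts. The p-values measure the spread over the 3 antibody libraries, which may be technical, and there was no control CLIP library, so depletion here is a difference between the 2 assays.

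Mcm3, a ring subunit, had 2646 (35L33G), 2402 (2J3) and 2406 (polyclonal) CLIP counts against 11192 in untreated poly(A) RNA. Its log2 enrichment was −1.62 ± 0.10 (SD, n = 3; edgeR adjusted p = 5.8e-13). All 3 antibodies lay far below the input level, and Mcm3 was the most depleted member with this input. Mcm7, with 630, 677 and 719 counts against 2928, was next at −1.57 ± 0.07 (edgeR adjusted p = 9.3e-10, n = 3). Mcm3 was the lower of the 2 with 2 antibodies and Mcm7 with 1, so this pair was not ordered beyond its spread. The order also depended on the input. With the unlabelled poly(A) column of the CLIP table as input, Mcm7 was the lowest member at −1.91 and Mcm3 was at −1.54. Mcm7 had 3624 counts in that column.

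Mcm5 and Mcm2, which form the gate through which DNA enters the ring, had nearly equal values. Mcm5 had 2046, 2075 and 1995 counts against 7681, at −1.36 ± 0.05 (edgeR adjusted p = 1.5e-11, n = 3). Mcm2 had 1752, 1568 and 1772 counts against 6374, also at −1.36 ± 0.10 (edgeR adjusted p = 8.8e-11, n = 3). Their mean difference was 0.00 ± 0.12 (SD, n = 3).
Mcm6 had 2626, 2593 and 2768 counts against 8561, at −1.14 ± 0.03 (edgeR adjusted p = 1.1e-10, n = 3). Mcm10 had 847, 789 and 814 counts against 2514, at −1.07 ± 0.06 (edgeR adjusted p = 2.6e-07, n = 3). These were the least depleted of the 6, and Mcm10 was the higher of the pair with each antibody, by 0.06 ± 0.07 on average (SD, n = 3), which is within its spread.

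Mcm4 stood apart from the other subunits of its complex. It had 2305, 2413 and 2425 CLIP counts against 3991 in untreated poly(A) RNA, a log2 enrichment of −0.20 ± 0.02 (SD, n = 3; edgeR adjusted p = 0.069), so it was not called. It was higher than each of the other 6 members with all 3 antibodies, by 0.88 ± 0.09 over Mcm10 and by 1.43 ± 0.12 over Mcm3 (SD, n = 3). With 3 antibodies an exact paired permutation test cannot go below p = 0.25, so these differences are given with their spread only. The Mcm4 call depended on the setting: it was depleted with library totals (−0.56, edgeR adjusted p = 1.7e-05; 7 of 7 members and 46.1% of all transcripts were then depleted) and with the poly(A) exon column deposited beside the CLIP counts, which names no condition, as input (−0.29, edgeR adjusted p = 0.0096), and the adjusted p over all alternatives ran from 1.7e-05 to 0.72.

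**Figure D2:**
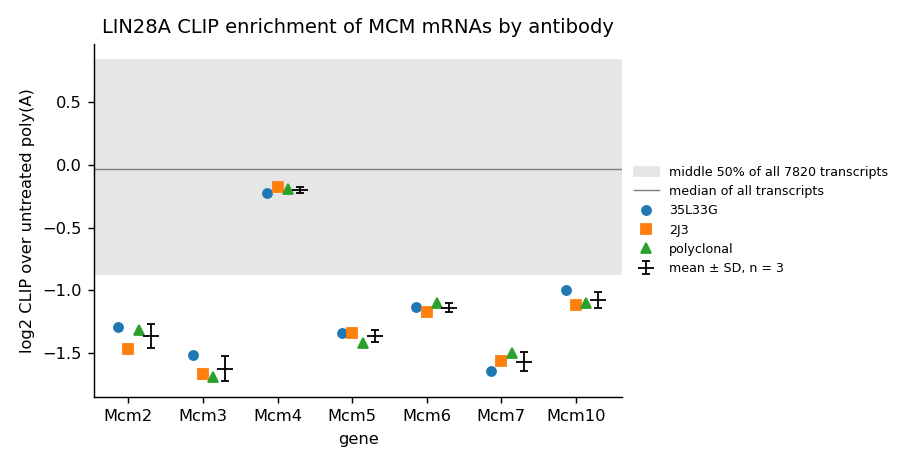
Log2 CLIP over untreated poly(A) (vertical axis) of each MCM gene for the 3 antibodies, with the mean and SD (n = 3). The grey band is the middle 50% of all 7820 transcripts; Mcm4 lies inside it at −0.20 and the other 6 lie below it.

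The position of CLIP reads along the mRNA differed between subunits. The share of reads in the 3′ UTR, out of coding and 3′ UTR reads, needs no poly(A) library. For Mcm4 it was 31.3%, 34.1% and 37.4% with 35L33G, 2J3 and the polyclonal. For Mcm5 it was 29.4%, 29.0% and 31.1%, and for Mcm3 19.6%, 22.7% and 23.2%. These 3 subunits had the largest shares with every antibody, and Mcm4 and Mcm5 lay near the median of all 7615 coding transcripts with at least 100 such reads over the 3 libraries, 30.5%.

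The other 4 members had smaller shares with every antibody. Mcm6 had a 3′ UTR share of 10.4%, 12.5% and 12.7%, and Mcm10 of 8.91%, 13.97% and 10.1%. Mcm2 had 3.15%, 3.01% and 2.43%. Mcm7 had 7, 1 and 8 reads in its 3′ UTR, a share of 0.83% ± 0.58 (SD, n = 3), and 3.76% of coding transcripts had a smaller share. The ranges of Mcm6 and Mcm10 overlap, and those of Mcm2 and Mcm7 lie below all others.

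The non-coding share of transcript length, both UTRs together, is set beside it for reference. It was 27.9% for Mcm4 and 15.5% for Mcm3, below their CLIP shares of 34.3% ± 3.04 and 21.8% ± 1.94 (SD, n = 3). For the other members it was larger than the CLIP share, at 35.6% for Mcm5 (CLIP 29.8% ± 1.11), 15.0% for Mcm6 (11.9% ± 1.30), 23.9% for Mcm10 (11.0% ± 2.64), 19.5% for Mcm2 (2.86% ± 0.38) and 9.85% for Mcm7 (SD, n = 3). Mcm3 has nearly the same non-coding share of length as Mcm6, and its CLIP share was the larger with every antibody. No test was run on these shares.

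**Figure D3:**
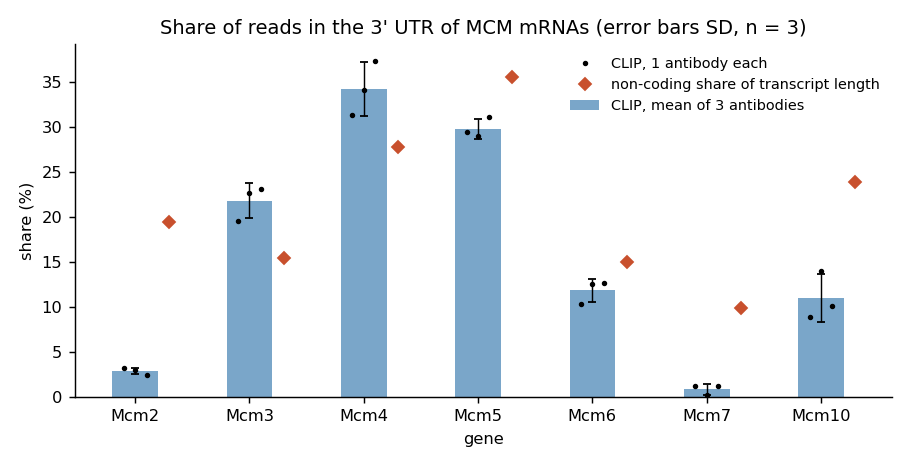
Share in percent (vertical axis) of CLIP reads in the 3′ UTR out of coding and 3′ UTR reads. Blue bars are the mean with SD (n = 3), black points the 3 antibodies, and red diamonds the non-coding share of transcript length. The CLIP share exceeds the length share for Mcm3 and Mcm4 and is far below it for Mcm2, Mcm7 and Mcm10.

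With coding reads of the CLIP libraries alone, against the same untreated exon counts, the edgeR quasi-likelihood test called 6 of 7 members depleted, with smaller values. The share of all transcripts called in this setting is not given here. The log2 fold changes were −1.20 for Mcm3, −1.10 for Mcm5, −0.85 for Mcm7, −0.62 for Mcm2, −0.54 for Mcm6, −0.47 for Mcm10 and −0.05 for Mcm4. Mcm3 was the lowest and Mcm4 the highest member on either count. Since the input here covers all exons and the CLIP counts the coding part only, these values do not measure depletion within the coding sequence, for Mcm4 or any other member.

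After Lin28a siRNA, mRNA levels of all 7 members were lower than with siLuc, by amounts that split the ring. Of all 8859 transcripts 50.2% were lower, and so were 67 of the 83 other replication and S phase genes measured. The question is how mRNA levels differed when Lin28a was reduced; with 1 library per condition there is no replicate check, and the intervals cover counting error only. In these bulk samples, fewer cells of a type and less RNA per cell cannot be told apart. Mcm5 stood at 242 RPKM in untreated cells, 202 with siLuc and 131 with siLin28a, a log2 ratio of siLin28a to siLuc of −0.62 (95% counting interval −0.68 to −0.56). Mcm6 stood at 319, 351 and 238 RPKM, a ratio of −0.56 (−0.61 to −0.51). Mcm10 stood at 77.7, 85.4 and 62.3 RPKM, a ratio of −0.45 (−0.54 to −0.37). These 3 mRNAs were the lowest relative to siLuc among the members.

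Mcm4 was intermediate at 120, 106 and 85.7 RPKM and a log2 ratio of −0.30 (−0.38 to −0.23). Mcm3, at 419, 445 and 413 RPKM, had a log2 ratio of −0.11 (−0.15 to −0.07). Mcm2, at 204, 213 and 198 RPKM, was also at −0.11 (−0.16 to −0.05), and Mcm7, at 132, 141 and 131 RPKM, at −0.10 (−0.18 to −0.02). The mRNAs of Mcm2, Mcm3 and Mcm7 with siLin28a were within their counting intervals of the untreated level.
None of the 7 was 2-fold lower, as were 0.44% of 8859 transcripts, and none was 2-fold higher (1.65%). Against untreated cells none was 2-fold lower (0.696% of 9056) or higher (2.04%). The median member was at −0.30, against −0.00 for all transcripts.

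The siLuc library enters both this comparison and that of siLuc with untreated cells, so the 2 are not independent. For siLuc over untreated the log2 ratios were 0.14 for Mcm6, 0.14 for Mcm10, 0.09 for Mcm7, 0.09 for Mcm3, 0.06 for Mcm2, −0.18 for Mcm4 and −0.27 for Mcm5. Against untreated cells, siLin28a was at −0.89 for Mcm5 and −0.49 for Mcm4, larger in size than against siLuc, and at −0.42 for Mcm6 and −0.32 for Mcm10, smaller in size. Mcm5 was the lowest member against either reference. No member differed 2-fold between siLuc and untreated cells, where 0.366% of 8743 transcripts were 2-fold lower and 0.252% higher.

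Footprints of every member were more than 2-fold lower with siLin28a than with siLuc. By library totals 7 of 7 were at least 2-fold lower, as were 9.35% of 7799 transcripts, and the median member was at −1.43 against −0.23 for all transcripts. With TMM scaling, which moved the median transcript to 0.00, 5 of 7 were at least 2-fold lower against a background of 4%; Mcm3 (−0.94) and Mcm6 (−0.93) were then just short of it. There is 1 footprint library per condition and no replicate check.

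Mcm5 was the lowest, with 2966 footprints in the siLuc library and 541 in the siLin28a library. These are 392 and 90.5 CPM, the count scaled to the library total. Its log2 ratio was −2.11 (95% counting interval −2.25 to −1.98), which left 23.1% of the siLuc level, and 2 of 7799 transcripts were lower. Mcm4 followed with 1671 and 397 footprints, 221 and 66.4 CPM, at −1.73 (−1.89 to −1.57). Mcm10, the factor outside the ring, had 1026 and 255 footprints, 136 and 42.6 CPM, at −1.67 (−1.86 to −1.47). The intervals of Mcm4 and Mcm10 overlap, and that of Mcm5 lies below both.

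Mcm2 had 1797 and 526 footprints, 237 and 88.0 CPM, at −1.43 (−1.57 to −1.29). Mcm7 had 2178 and 714, 288 and 119 CPM, at −1.27 (−1.39 to −1.15). Mcm3 had 3194 and 1120, 422 and 187 CPM, at −1.17 (−1.27 to −1.07), and Mcm6 had 6020 and 2129, 795 and 356 CPM, at −1.16 (−1.23 to −1.09). Mcm7, Mcm3 and Mcm6 did not differ beyond their counting intervals. Together the ring subunits took 0.235% of footprints with siLuc (17826 counts) and 0.0907% with siLin28a (5427 counts), while their share of poly(A) counts was 0.443% and 0.362%.

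**Figure D4:**
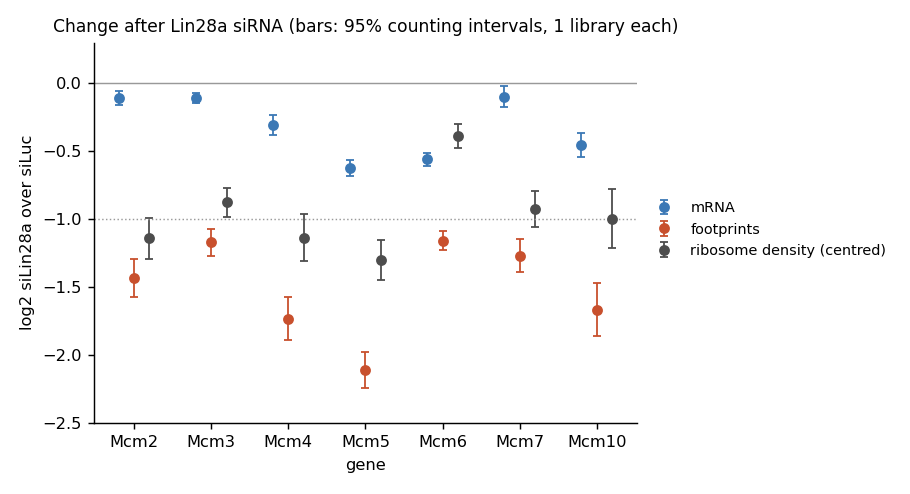
Log2 ratio of siLin28a to siLuc (vertical axis) of mRNA, footprints and ribosome density for the 7 MCM genes, 1 library per condition, with 95% counting intervals; the dotted line marks 2-fold lower. All footprint values lie below −1, mRNA values between −0.62 and −0.10, and density values between −1.30 (Mcm5) and −0.39 (Mcm6).

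The footprint difference exceeded the mRNA difference in every member, so ribosome density was lower too. Density change is the footprint log2 ratio minus the mRNA log2 ratio of the footprint table's own poly(A) counts, centred on the median transcript, which lay at −0.22 by library totals. It was −1.30 for Mcm5 (95% counting interval −1.45 to −1.16), −1.14 for Mcm2 (−1.29 to −0.99), −1.14 for Mcm4 (−1.31 to −0.96) and −0.995 for Mcm10 (−1.22 to −0.78). It was −0.92 for Mcm7 (−1.06 to −0.79), −0.88 for Mcm3 (−0.98 to −0.77) and −0.39 for Mcm6 (−0.47 to −0.30). Of the 7 members 3 (Mcm5, Mcm2 and Mcm4) were at least 2-fold lower, against 3.77% of 7799 transcripts, and Mcm10 lay just short of it. Without centring 6 of 7 were at least 2-fold lower, all but Mcm6 (−0.60), against 9.1% of transcripts. With centring none was at least 2-fold higher (5.24%).

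Mcm6 stood apart here, as Mcm4 did in CLIP. Its mRNA ratio of siLin28a to siLuc was among the lowest of the family and its density change the smallest in size, and its density interval lies above those of the other 6 members. Of all transcripts 26.4% had a lower density change than Mcm6, against 6.59% for Mcm3 and 0.78% for Mcm5. Mcm2 and Mcm5 reached similar density changes from different mRNA values, −0.07 and −0.60 in the footprint table's tally.

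**Figure D5:**
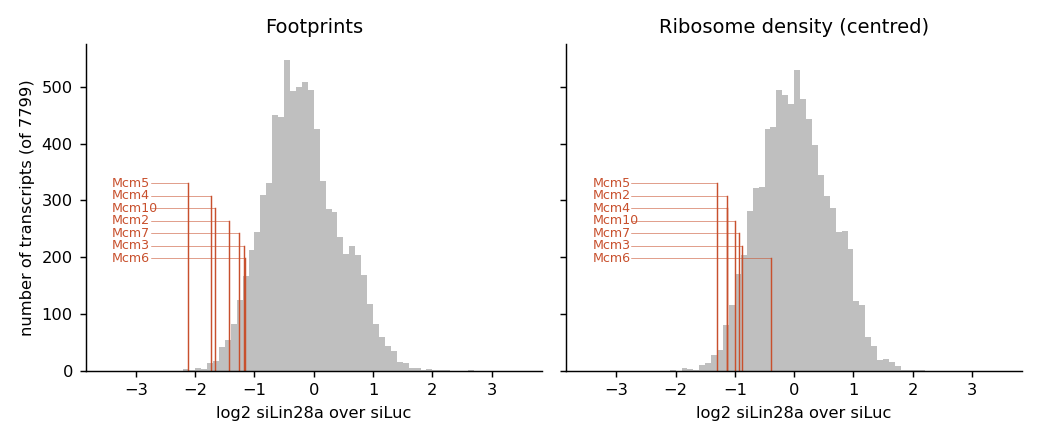
Distribution of the log2 ratio of siLin28a to siLuc over 7799 transcripts (grey bars, number of transcripts per bin) for footprints (left) and centred ribosome density (right), with red lines at the 7 MCM genes. The members lie in the lower tail of footprints, from −2.11 (Mcm5) to −1.16 (Mcm6); in density Mcm6 lies at −0.39, inside the bulk.

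In the siLuc control, ribosome density already differed between subunits. Relative to the median transcript, it was 101% for Mcm6, 77.4% for Mcm5, 70.7% for Mcm4, 69.8% for Mcm10, 47.9% for Mcm7, 44.7% for Mcm3 and 43.7% for Mcm2. Density here is footprint CPM over poly(A) CPM, with no scaling to length. Non-coding sequence made up 9.85% of the Mcm7 transcript and 35.6% of the Mcm5 transcript, and its part in this order was not tested. The Mcm7 value depends on how poly(A) reads were tallied. Its poly(A) counts were 2.15 times higher in the footprint table than in the poly(A) table for siLuc and 2.10 times for siLin28a, whereas the other members had ratios of 0.78 to 0.99. With the poly(A) table's counts the log2 density of Mcm7 turned from −1.06 to 0.45. Its density change was −0.95 with those counts, against −0.92.

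Per kilobase of coding sequence, which allows subunits to be compared, siLuc footprints stood at 322 CPM for Mcm6, 178 for Mcm5, 173 for Mcm3, 133 for Mcm7, 87.4 for Mcm2, 85.3 for Mcm4 and 51.0 for Mcm10. Mcm5 and Mcm3 (95% counting intervals 171 to 184 and 167 to 179) overlapped, as did Mcm2 and Mcm4 (83.4 to 91.6 and 81.2 to 89.4). With siLin28a the levels were 144 for Mcm6, 76.8 for Mcm3, 55.3 for Mcm7, 41.0 for Mcm5, 32.4 for Mcm2, 25.6 for Mcm4 and 16.0 for Mcm10. Mcm5 thus went from the second place to the fourth. The highest ring subunit exceeded the lowest 3.78-fold with siLuc and 5.63-fold with siLin28a. For mRNA per exon length these ratios were 4.20 and 4.81. The region in which footprints were counted is not given in the sources used here, so values per coding kilobase assume that they lie in it.

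Other genes of the replication pathway were read from 4 lists, and genes named as highest or lowest are so among those with at least 200 counts in the untreated or siLuc library. The origin licensing list holds 9 genes that load the MCM ring or restrain loading, and Mcmbp, Mcm8 and Mcm9. Of these 12 genes 3 were depleted and 3 enriched in CLIP by edgeR (median −0.29); with library totals 8 were depleted. The depleted genes were Cdt1, Mcm8 and Mcmbp, and the enriched ones Orc5, Mcm9 and Orc2 (those outside the rule for named genes were named after their values were seen). The loading factor Cdt1 was the lowest gene of the 4 lists at −2.86 ± 0.12, and Orc5, a subunit of the origin recognition complex, the highest at 1.62 ± 0.07 (SD, n = 3). Of 15 measured genes of helicase activation and the replisome 8 were depleted and 1 enriched (median −0.39), but with coding counts of the CLIP libraries 3 were depleted and 5 enriched. The highest was Dbf4, which activates the kinase that phosphorylates MCM proteins, at 1.21 ± 0.25 (SD, n = 3).
Of 28 genes of polymerases and fork synthesis 13 were depleted and 5 enriched (median −0.23), with 11 enriched on coding counts and 3 with library totals. Among them were the DNA polymerase delta catalytic subunit Pold1 at −2.41 ± 0.11 and the topoisomerase Top1 at 1.12 ± 0.13 (SD, n = 3). Of 25 S phase regulators and nucleotide supply genes 16 were depleted and 3 enriched (median −0.78; 5 enriched on coding counts and 1 with library totals), with the thymidine kinase Tk1 at −2.42 ± 0.25 (SD, n = 3). All of these named values were called by edgeR. Over the 4 lists 40 of 80 were depleted and 12 enriched, beside the 33.3% and 34.6% of all transcripts. With coding counts of the CLIP libraries 33 were depleted and 24 enriched, and the share of all transcripts in that setting is not given here. With library totals 54 were depleted and 7 enriched, beside 46.1% and 25.4% of all transcripts.

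For mRNA, 0 of 83 list genes were 2-fold lower or higher with siLin28a than with siLuc, with a median of −0.23. Of all transcripts 0.44% were lower and 1.65% higher. Among the lowest were the GINS subunit Gins2 at −0.64 (95% counting interval −0.83 to −0.45) and the loading factor Cdc6 at −0.63 (−0.77 to −0.48). Highest were Ticrr, a partner of TOPBP1 in helicase activation, at 0.91 (0.81 to 1.00), Rnaseh2c at 0.80 (0.49 to 1.10) and E2f2 at 0.68 (0.40 to 0.96). For siLuc over untreated, E2f2 (−0.73) and Rnaseh2c (−0.67) were the lowest of the lists, followed by Ccne1 (−0.53). The siLuc library enters both comparisons. E2f2 stood at 7.15 RPKM in untreated cells, 4.32 with siLuc and 6.94 with siLin28a, and Rnaseh2c at 41.3, 25.9 and 45.1. For both genes siLuc was the lowest library. Mtbp (0.65), Orc3 (0.51) and Dbf4 (0.49) were the highest there with 200 counts or more.

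Footprints of 21 of 80 list genes were at least 2-fold lower and of 0 at least 2-fold higher, with a median of −0.62. Of all transcripts 9.35% and 3.47% passed. With TMM 13 list genes were lower, where 4% of all transcripts were, and 0 higher. The lowest list gene, the single-strand DNA binding subunit Rpa1, at −1.59 (95% counting interval −1.72 to −1.46), lay above Mcm5, whose interval it does not meet, and above Mcm4 and Mcm10, whose intervals it overlaps. Uhrf1, which brings the maintenance methyltransferase to replicated DNA, was at −1.54 (−1.67 to −1.40) and the checkpoint adaptor Clspn at −1.54 (−1.84 to −1.24). Rpa3, the smallest subunit of the same complex as Rpa1, was the highest at 0.49 (0.35 to 0.63), followed by E2f5 at 0.25 (−0.13 to 0.63) and Rbl1 at 0.23 (−0.06 to 0.52).
Ribosome density was at least 2-fold lower for 7 of 80 list genes and higher for 1 (Mcm9, at 1.15, named after its value was seen), with a median of −0.31. Of all transcripts 3.77% were lower and 5.24% higher. Without centring 11 list genes were lower, where 9.1% of all transcripts were, and 0 higher. Recql4, a helicase that acts in origin firing, was lowest at −1.39 (−2.001 to −0.79), followed by Uhrf1 at −1.39 (−1.54 to −1.23) and Pold1 at −1.28 (−1.47 to −1.09). Orc5 was highest among genes with 200 counts or more at 0.85 (0.63 to 1.06), followed by Mtbp at 0.67 (0.14 to 1.20) and Rbl1 at 0.63 (0.25 to 1.02).

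The transcripts most like the ring were found by the Euclidean distance between log2 CPM profiles over the 8 libraries, each centred on its own mean, to the mean profile of Mcm2 to Mcm7, among 6888 transcripts with at least 200 untreated counts. The 5 nearest non-members were Shmt1, a cytosolic enzyme of folate metabolism (distance 0.31), the peptidase gene Thop1 (0.35), Wdr46 (0.36), Mybbp1a (0.36) and Wdr75 (0.38). Shmt1 had a CLIP enrichment of −1.23 ± 0.03 (SD, n = 3), a footprint log2 ratio of −1.44 and a density change of −1.07. Among the members, Mcm10, whose values did not enter the mean, was nearest at 0.41, and Mcm4 farthest at 1.60, with 1654 non-members closer. Mcm7 followed at 1.39, with 1111 closer. The profiles used the poly(A) table's counts, where Mcm7 had 2522 with siLuc against 5420 in the footprint table. The Mcm7 distance may therefore depend on the tally, and it was not computed with the other one. For Mcm6, Mcm3, Mcm2 and Mcm5, 410, 171, 156 and 74 non-members were closer, so the ring subunits did not share a tight profile. The distance uses the same values as the comparisons above and describes likeness over these 8 libraries.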

How the data were processed

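Per the submitters' processing notes, GSNAP, bedtools and the mouse build mm9 were used; the sources used here give neither their roles and versions nor how reads were counted. The deposited counts are whole numbers for each RefSeq transcript, and the deposited RPKM values equal the count divided by exon length and column total. No transcript of the footprint table has fewer than 80 poly(A) counts in a library. There were 20 further columns with values per sample, which were left out. A poly(A) exon column in the CLIP table that names no condition served only as an alternative input (rank correlation 0.986 with untreated counts, 0.959 with siLuc). RefSeq matched all 7 members.

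CLIP exon counts (3 libraries) were tested against untreated poly(A) counts (1 library, assumed to vary like the CLIP libraries) with edgeR 4.0.16 (R 4.3.3; quasi-likelihood, TMM, filterByExpr, which removed none) and Benjamini-Hochberg adjustment over 7820 transcripts; DESeq2 1.42.0 was an alternative. The fit was also run on simulated counts in which the CLIP and input libraries varied alike. That run checks the code and cannot show whether the p-values hold for the real libraries. Changes after siRNA are log2 ratios of CPM by library totals with a pseudocount of 0.5 counts and 95% intervals for counting error only. Transcripts needed 200 counts over both libraries for mRNA, and 50 in each assay for footprints and density. PCR duplicates are not marked, so intervals are too narrow if reads are not independent molecules. All 7 members passed these filters. The members are named in every comparison. From the lists the 3 highest and 3 lowest with at least 200 counts in the untreated or siLuc library are named, as are the 5 nearest profiles; 1 list gene that the rule names is not reported here. The members and lists were chosen with earlier results of these data known.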

Additional observations from a re-analysis of the deposited data

How the results depend on the processing

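Depletion of 6 members in CLIP, with 0 enriched, was the count with DESeq2, without a filter, with coding counts of the CLIP libraries and without each antibody in turn; it was 7 with library totals and with the unlabelled poly(A) column as input. Of all transcripts 33.3% were depleted in the main setting, 31.3% with DESeq2 and 46.1% with library totals. The share is not given for the other settings. The median enrichment of the members was −1.73 with library totals, where the median of all transcripts moved to −0.40. It was −1.31 with the unlabelled poly(A) column and −0.63 with coding counts of the CLIP libraries. Leaving out 1 antibody gave −1.38 to −1.31. The median 3′ UTR share of the members, 11.9%, was 19.01% with counts pooled over the members, 16.8% without Mcm10 and 11.4% to 12.6% without 1 antibody. The median mRNA change was −0.38 in the footprint table's tally and −0.21 without Mcm10. The median footprint change was −1.20 with TMM. The median density change was −1.21 without centring. The median log2 density in siLuc, −0.52, was −0.85 without centring, −0.13 with the poly(A) table's counts and −0.78 without Mcm10. The densities in siLuc that changed sign were those of Mcm6, −0.32 without centring, and of Mcm7, 0.45 with the poly(A) table's counts. For Mcm7 the higher tally of the footprint table sets the difference, and the cause of the other shifts was not tested. Of the alternative values for single genes and lists, 173 stayed on their side of the threshold or within their spread, 41 moved further, 2 (both Mcm4 in CLIP) became called by the edgeR test and 2 changed sign. The 2-fold limit was lost by Mcm3 and Mcm6 footprints with TMM, and passed by the density change of Mcm3, Mcm7 and Mcm10 without centring. The medians without Mcm7, −1.55 for footprints, −1.07 for density change and −0.51 for density in siLuc, were chosen after seeing the data. No paired analysis was possible because the labels give no replicate numbers and every condition outside CLIP has 1 library.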

Other observations

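The MCM relatives outside the ring, Mcm8 and Mcm9, which act together in homologous recombination, were far less abundant than the ring subunits and are named here after their values were seen. Mcm8 stood at 14.9 RPKM in untreated cells, 17.8 with siLuc and 14.6 with siLin28a, and Mcm9 at 4.79, 6.87 and 4.14 RPKM. In CLIP they lay on opposite sides: Mcm8 was depleted at −1.14 ± 0.03 (edgeR adjusted p = 0.0029; SD, n = 3) and Mcm9 enriched at 1.41 ± 0.31 (edgeR adjusted p = 0.00037; SD, n = 3). Footprints of Mcm8 with siLin28a were at −1.07 relative to siLuc (95% counting interval −1.63 to −0.50), and those of Mcm9 at 0.11 (−0.35 to 0.57). The Mcm8 value lay above that of every ring subunit, and its wide interval holds the values of several of them. The density change was −0.51 (−1.11 to 0.09) for Mcm8 and 1.15 (0.59 to 1.70) for Mcm9. Mcmbp, an MCM-binding protein, was depleted in CLIP at −0.71 ± 0.02 (edgeR adjusted p = 8.2e-05; SD, n = 3), with footprints at −0.84 (−1.004 to −0.69).

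The Mcm7 locus (mm9 chromosome 5, 138605817 to 138613090) holds the precursors of Mir106b, Mir93 and Mir25. Their poly(A) counts were 1, 3 and 15 in untreated cells, 0, 8 and 11 with siLuc and 0, 7 and 10 with siLin28a. Poly(A) RNA-seq does not measure mature miRNAs, and these counts are too few to compare.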
